A study of Mus musculus with 21 samples.

Results

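The comparison was between B cells labelled BCL2 HEL pos and B cells labelled HEL pos, both sorted from mouse mesenteric lymph nodes (mLN), the nodes that drain the intestine. It rested on 6 of the series' 21 RNA-seq libraries, 3 of each kind, and on every gene with enough reads, 11419 of the 23337 genes in the count table. The BCL2 HEL pos libraries carry the numbers 922, 926 and 950 and the HEL pos libraries are a pool and the numbers 392 and 399. All came from C57BL/6 mice of 8 to 12 weeks, and cells were sorted straight into TRIzol. The series holds the same kinds of cell from spleen and Peyer's patches (PP), and 1 pool of HEL neg B cells from each organ. The labels do not expand HEL, do not give the promoter or the species of the BCL2 sequence, and do not say how many mice stand behind a library, so the p-values measure the spread between libraries, which may in part be technical. The series describes its subject as self-reactive B cells of the gut.

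BCL2 is the founding member of a family of proteins that decide whether the mitochondrial outer membrane is permeabilised and the cell dies. Antiapoptotic members such as BCL2, BCL-XL and MCL1 hold the pore-forming proteins BAX and BAK in check, and BH3-only proteins such as BIM and NOXA release them. B cells whose receptor binds a self antigen often become anergic: they keep receiving antigen signals, raise genes that restrain antigen receptor signalling, depend strongly on survival factors and are short-lived. Enforced BCL2 is classically used to keep such cells alive.

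The 6 libraries held between 7408837 and 10384341 counts, and between 12747 and 15037 genes had at least 1 count. Levels below are CPM, the counts divided by each library's total after scaling by the trimmed mean of M-values. Values of the BCL2 HEL pos cells are given in the order 922, 926 and 950, and those of the HEL pos cells in the order pool, 392 and 399. Within a kind, libraries correlated across genes at Spearman's rho of 0.982 to 0.990, and every pair differed by more than sampling noise (chi-square per degree of freedom between 8.34 and 19.5). The B cell markers were present throughout: Cd79a stood at 5414, 5074 and 5591 CPM in BCL2 HEL pos cells, against 4215, 4509.9 and 4009 CPM in HEL pos cells. The 4 Y-linked genes examined had 0 counts in HEL pos 392 and 399 and were present in the HEL pos pool and in all 3 BCL2 HEL pos libraries, whereas Xist was present in all 6. The sex of the mice therefore moves with the comparison, and its part in the results was not tested. The labels name both TruSeq and Nextera XT for library preparation, and which was used for which library is not clear. Whether preparation also moves with the comparison could therefore not be told. A comparison with the HEL pos pool alone, itself 1 of the 3 HEL pos libraries, is given with the counts below.

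In total 1334 genes, 11.7% of those tested, passed edgeR's quasi-likelihood test at a Benjamini-Hochberg adjusted p under 0.05. Of these, 660 (5.78%) were higher in BCL2 HEL pos cells and 674 (5.90%) were lower, and the median log2 fold change over all tested genes was -0.01. These shares are the background against which each count of list members below is to be read. The difference exceeded 2-fold for 444 genes (3.89%), 218 of them higher and 226 lower. The 3 libraries of 1 kind lay wholly above or below the other 3 for 4173 genes (36.5%), and for 1319 of the 1334 called genes. Against the HEL pos pool alone, whose spread is then taken to be that of the other groups, 82 genes were called. None of the 1334 genes changed direction against that pool. For the 1319 this was largely fixed in advance, because the pool is 1 of the 3 HEL pos libraries behind the calls. Leaving out HEL pos 392, HEL pos 399, BCL2 HEL pos 922, 926 or 950 left 654, 716, 773, 866 and 727 calls, and leaving out the HEL pos pool left 1192.

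**Figure D1:**
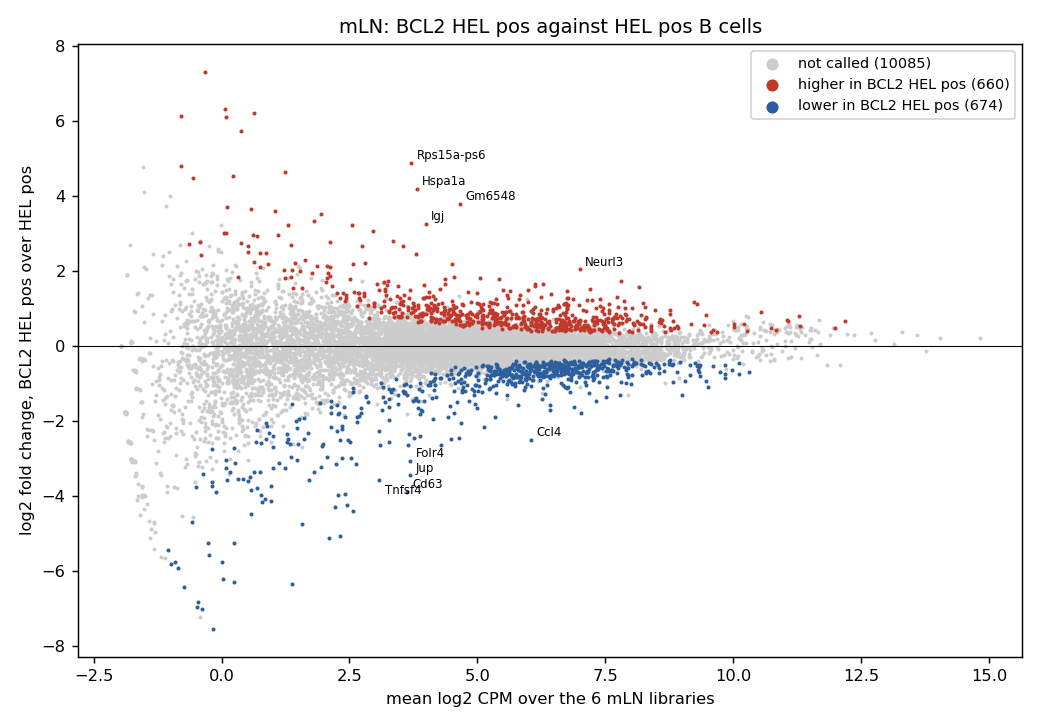
Log2 fold change of BCL2 HEL pos over HEL pos mLN B cells (y axis) against the mean log2 CPM over the 6 libraries (x axis), 1 point per tested gene. The 660 genes called higher (red) and the 674 called lower (blue) are found over nearly the whole range of levels, and the 10 labelled genes have a mean log2 CPM above 3.

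Within the BCL2 family, Bcl2 itself was higher in BCL2 HEL pos cells and Bcl2l1, which encodes BCL-XL, was lower. Bcl2 (chr1:106538178-106714274, minus strand, mm10) had 175, 134 and 158 CPM in BCL2 HEL pos cells, against 99.3, 50.7 and 65.7 CPM in HEL pos cells. The groups did not overlap, and the difference was a log2 fold change of 1.11 ± 0.23 (SE), adjusted p = 0.00336. Against the HEL pos pool alone, the log2 fold changes of Bcl2 and Bcl2l1 were 0.65 and -1.39, and neither was called. The table's Bcl2 row counts mouse transcripts, so whether it holds all reads of the BCL2 that the labels name was not tested. Bcl2l1 (chr2:152780668-152831728, minus strand) had 13.5, 12.4 and 11.8 CPM in BCL2 HEL pos cells, against 33.0, 49.0 and 46.2 CPM in HEL pos cells. Each BCL2 HEL pos library held less Bcl2l1 than any HEL pos library, with a log2 fold change of -1.77 ± 0.25 (SE), adjusted p = 0.000134. Bcl2a1b, of the antiapoptotic A1 group, fell as well (a log2 fold change of -1.12 ± 0.23 (SE), adjusted p = 0.00312), at 84.9, 82.0 and 57.7 CPM in BCL2 HEL pos cells, against 118, 190.0 and 179 CPM in HEL pos cells. Its reads may be shared with near-identical copies, so the gene it stands for is uncertain. Bcl2a1d, another of those copies, averaged 25.2 ± 3.96 CPM in BCL2 HEL pos cells and 39.7 ± 5.08 CPM in HEL pos cells (SD, n = 3 each) and was not called. Mcl1 did not pass the test: it averaged 272 ± 8.89 CPM in BCL2 HEL pos cells and 261 ± 60.1 CPM in HEL pos cells (SD, n = 3 each).

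Among the BH3-only and pore-forming members, Pmaip1, which encodes NOXA, was the 1 gene called of the 8 tested, and it was higher. It had 20.2, 30.2 and 20.6 CPM in BCL2 HEL pos cells, against 13.6, 7.18 and 12.4 CPM in HEL pos cells. For Pmaip1 that was a log2 fold change of 1.11 ± 0.31 (SE), adjusted p = 0.0222. The call did not hold without HEL pos 392, HEL pos 399 or BCL2 HEL pos 926 (log2 fold changes of 0.87, 1.21 and 0.89). Bcl2l11, which encodes BIM, averaged 165 ± 57.4 CPM in BCL2 HEL pos cells and 188 ± 12.8 CPM in HEL pos cells (SD, n = 3 each), and its groups overlapped. Bmf was higher in every BCL2 HEL pos library, at 90.2, 104 and 96.5 CPM against 60.8, 68.1 and 55.9 CPM in HEL pos cells, yet missed the threshold (adjusted p = 0.0614). Bax lay below, at 96.2, 94.9 and 96.6 CPM in BCL2 HEL pos cells against 118, 139.9 and 137 CPM in HEL pos cells, and also missed it (adjusted p = 0.0723). Of 19 caspases and death receptors, Casp2 and Casp9 rose, by 0.66 and 0.57 on the log2 scale, and 0 fell. For this list and for the 8 family members above, the share called was near the 11.7% over all tested genes. The Casp9 call did not hold without HEL pos 392 or 399 or any 1 of the BCL2 HEL pos libraries, with log2 fold changes between 0.52 and 0.63. Among 17 p53 targets, 4 rose, namely Pmaip1, Mdm2, Sesn1 and Zmat3, and Aen fell. Without HEL pos 392 that list had 1 higher and 0 lower members, and without HEL pos 399 or BCL2 HEL pos 926 or 950 it had 2 higher.

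**Figure D2:**
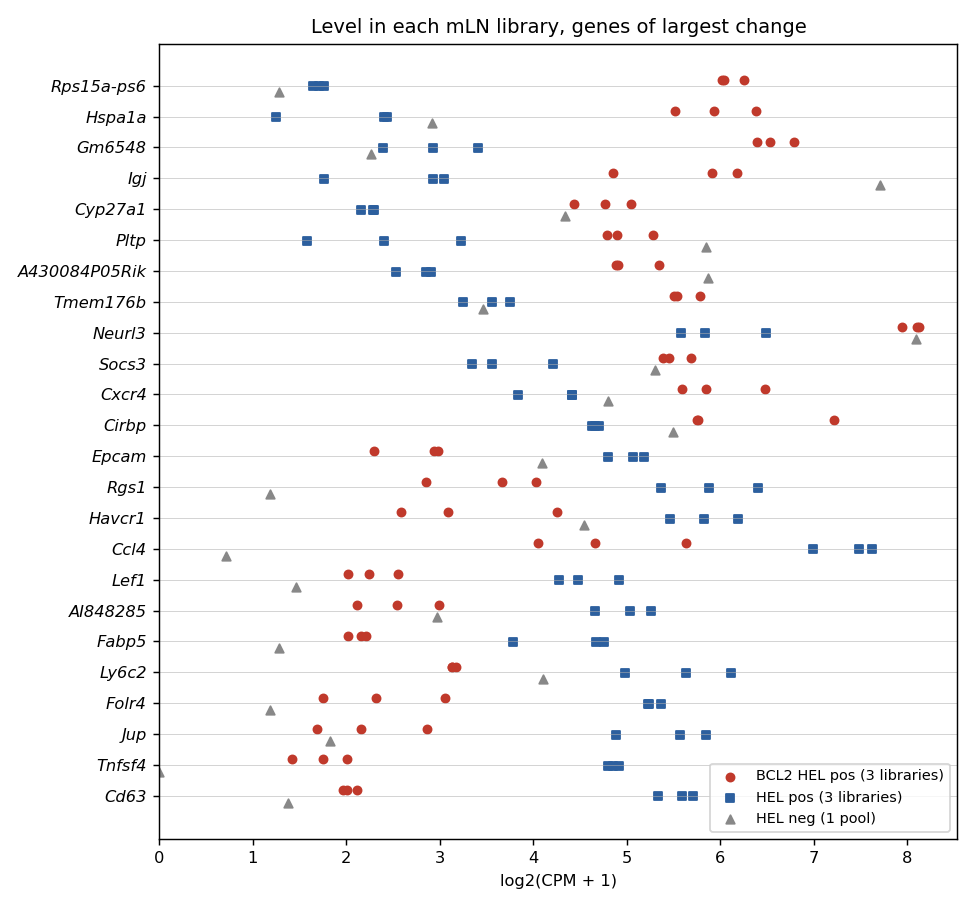
Level in each mLN library as log2(CPM + 1) (x axis) of the 12 called genes with the highest and the 12 with the lowest fold change among those with a mean log2 CPM of at least 3 and no overlap between the groups, in BCL2 HEL pos cells (red circles), HEL pos cells (blue squares) and the HEL neg pool (grey triangle). In every row the 3 red circles lie wholly to 1 side of the 3 blue squares, as that choice requires.

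Fold changes were ranked among called genes with a mean log2 CPM of at least 3 and no overlap between the groups. That separation was therefore set by the choice. The highest in this ranking included a heat shock chaperone, an antibody chain and a pair of genes of lipid handling. Hspa1a (chr17:34969190-34972156, minus strand), an inducible HSP70 chaperone, had 59.9, 82.1 and 44.6 CPM in BCL2 HEL pos cells, against 1.37, 4.29 and 4.39 CPM in HEL pos cells. That is a log2 fold change of 4.20 with an adjusted p of 6.96e-05, and every BCL2 HEL pos library exceeded every HEL pos library more than 10-fold. Its neighbour and near-identical copy Hspa1b moved likewise (a log2 fold change of 3.33 ± 0.70 (SE), adjusted p = 0.00329), and reads may be divided between them. Dnajb1, an HSP40 co-chaperone, rose too, with a log2 fold change of 1.13 ± 0.35 (SE), adjusted p = 0.042; that call did not hold without the HEL pos pool, HEL pos 392 or 399, or BCL2 HEL pos 926 or 950 (log2 fold changes between 0.84 and 1.17), nor with DESeq2. These were the only called genes of 13 heat shock chaperones, and the median log2 fold change of that list was -0.32. Igj, the joining chain of secreted antibody, had 59.2, 71.4 and 28.0 CPM in BCL2 HEL pos cells, against 7.23, 6.59 and 2.40 CPM in HEL pos cells. All 3 BCL2 HEL pos libraries exceeded the HEL pos libraries (a log2 fold change of 3.27 ± 0.67 (SE), adjusted p = 0.00287). The Igj call did not hold with limma-voom without the replicate block (adjusted p = 0.054) or against the HEL pos pool alone (adjusted p = 0.244).

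Cyp27a1, a sterol 27-hydroxylase, had 32.0, 26.2 and 20.6 CPM in BCL2 HEL pos cells, against 3.86, 3.89 and 3.46 CPM in HEL pos cells. For Cyp27a1 that was a log2 fold change of 2.80 ± 0.25 (SE), adjusted p = 7.13e-07. Pltp, which encodes phospholipid transfer protein, had 38.0, 28.7 and 26.7 CPM in BCL2 HEL pos cells, against 8.35, 4.29 and 2.00 CPM in HEL pos cells. For Pltp that was a log2 fold change of 2.67 ± 0.36 (SE), adjusted p = 7.27e-05. Neurl3, a ubiquitin ligase gene, had 279, 245 and 275 CPM in BCL2 HEL pos cells, against 89.0, 56.1 and 46.7 CPM in HEL pos cells. The Neurl3 difference was a log2 fold change of 2.06 ± 0.20 (SE), adjusted p = 1.34e-06. In none of these 3 genes did a HEL pos library reach the lowest BCL2 HEL pos library, as their selection required. Socs3, a feedback inhibitor of cytokine signalling, rose by 1.84 on the log2 scale, and Tmem176b, a transmembrane protein gene, by 2.18. Myeloid and dendritic cells also express several of these genes. Their markers summed to 328 to 382 CPM in BCL2 HEL pos cells and 172 to 209 CPM in HEL pos cells, mostly from Cst3. The median log2 fold change of the 13 tested markers was -0.28. Cst3 was the 1 marker called, and it was higher. Cd68, at 5.14, 7.13 and 4.43 CPM in BCL2 HEL pos cells against 12.7, 10.3 and 8.12 CPM in HEL pos cells, was not called. Lyz2 and Csf1r stayed below 5 CPM in each library, with log2 fold changes of 0.90 and -0.28, and were not called either. The part of such cells was not tested. Cirbp, a cold-inducible RNA-binding protein gene, stood at 147, 52.7 and 53.3 CPM in BCL2 HEL pos cells, against 23.8, 24.9 and 24.4 CPM in HEL pos cells. Library 922 stood far above 926 and 950, and the Cirbp call did not hold without it (log2 fold change 1.12). The libraries numbered 922 were also the highest in Cirbp in the other organs. In the same order, BCL2 HEL pos cells had 191, 67.0 and 62.0 CPM in spleen and 188, 58.8 and 76.8 CPM in PP. Rps15a-ps6 and Gm6548 were also among the 12, with log2 fold changes of 4.90 and 3.80. Rps15a-ps6 is by its name a pseudogene of an expressed ribosomal protein gene, so the source of its reads is uncertain. Both genes were also far higher in BCL2 HEL pos cells of spleen and PP. Rps15a-ps6 averaged 52.4 and 41.3 CPM there, against 1.63 and 2.08 CPM in HEL pos cells. Gm6548 averaged 70.3 and 66.8 CPM, against 4.93 and 8.30 CPM. What lies behind this was not tested.

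The lowest fold changes in the same ranking included a tetraspanin, a costimulatory ligand and a chemokine. It again required a mean log2 CPM of at least 3 and no overlap, so the separation was set by the choice. Cd63 (chr10:128900989-128912822, plus strand), a tetraspanin of late endosomes and lysosomes, had 3.34, 3.02 and 2.91 CPM in BCL2 HEL pos cells, against 39.2, 47.0 and 51.2 CPM in HEL pos cells. Every HEL pos library stood far above every BCL2 HEL pos library, and the difference was a log2 fold change of -3.89 ± 0.37 (SE), adjusted p = 1.34e-06. Tnfsf4 (chr1:161395409-161418410, plus strand), which encodes the costimulatory OX40 ligand, had 1.67, 3.02 and 2.35 CPM in BCL2 HEL pos cells, against 26.9, 29.1 and 27.9 CPM in HEL pos cells. The HEL pos libraries were nearly level with one another, and the difference was a log2 fold change of -3.56 ± 0.53 (SE), adjusted p = 0.000185. Jup, which encodes the junction protein plakoglobin, had 2.22, 6.28 and 3.46 CPM in BCL2 HEL pos cells, against 28.5, 56.4 and 46.4 CPM in HEL pos cells. For Jup that was a log2 fold change of -3.44 ± 0.45 (SE), adjusted p = 5.70e-05. Ccl4, a chemokine that activated B cells secrete, had 24.3, 48.4 and 15.5 CPM in BCL2 HEL pos cells, against 126, 178 and 196 CPM in HEL pos cells. Every HEL pos library exceeded the highest BCL2 HEL pos library, with a log2 fold change of -2.50 ± 0.39 (SE), adjusted p = 0.000298.

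Fabp5 (a fatty acid binding protein gene), Ly6c2 (a GPI-anchored surface protein gene), Rgs1 (a regulator of G-protein signalling that damps chemokine responses), Epcam (an adhesion molecule) and Havcr1 (TIM-1, a marker of regulatory B cells) fell as well, with log2 fold changes between -2.64 and -2.43. The Havcr1 call did not hold without HEL pos 392 or without BCL2 HEL pos 922 or 950 (log2 fold changes of -2.27, -2.29 and -2.13), nor with DESeq2. Spp1, which encodes osteopontin, fell too: it stood at 0, 1.93 and 0.692 CPM in BCL2 HEL pos cells, against 37.3, 29.0 and 26.0 CPM in HEL pos cells, with a log2 fold change of -5.06 ± 0.76 (SE), adjusted p = 0.000195. Spp1 and Ccl4 were the 2 genes called of 12 chemokine and cytokine genes, both lower. Among 12 costimulatory and coinhibitory ligands, Tnfsf4 fell while Icosl and Cd200 rose. Over all tested genes 11.7% were called, 5.78% higher and 5.90% lower, so these are small counts beside that background. Icosl, the ligand of ICOS on T cells, had 117, 90.9 and 115 CPM in BCL2 HEL pos cells, against 45.8, 28.5 and 39.7 CPM in HEL pos cells. Every BCL2 HEL pos library held over 90 CPM of Icosl and no HEL pos library 46, with a log2 fold change of 1.51 ± 0.16 (SE), adjusted p = 4.93e-06.

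**Figure D3:**
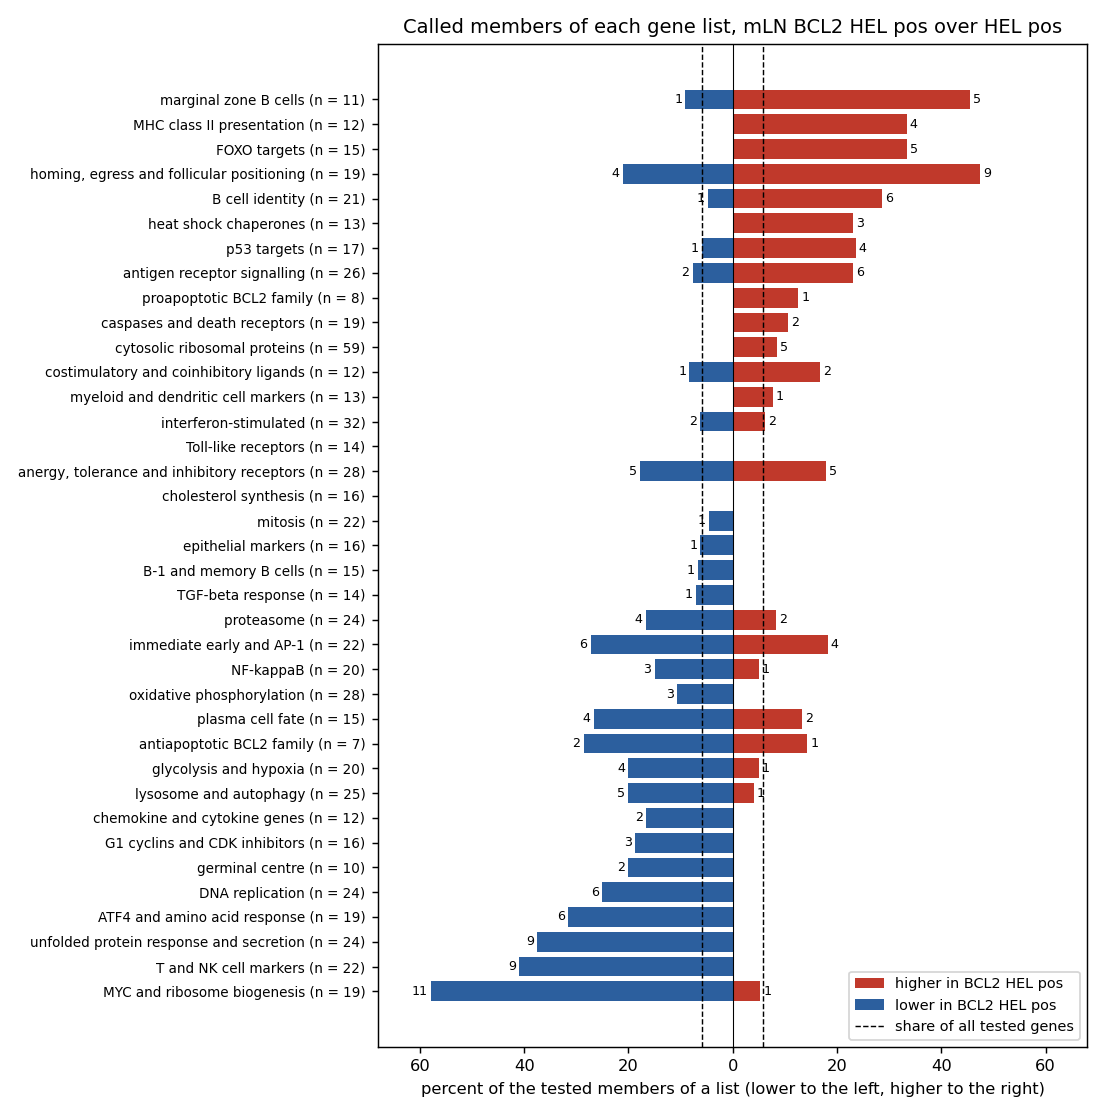
Percent of the tested members called, for each gene list with at least 7 tested, higher (red, to the right) or lower (blue, to the left) in BCL2 HEL pos than in HEL pos mLN B cells, with the number called beside each bar and the number tested in brackets. Dashed lines mark the shares over all tested genes, 5.78% higher and 5.90% lower; 11 of 19 MYC and ribosome biogenesis genes lie to the left and 9 of 19 homing genes to the right.

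Genes of lymphocyte trafficking were the list with the most members higher. Of 19 tested genes of homing, egress and follicular positioning, 9 rose, 4 fell, and the median log2 fold change was 0.61. S1pr1 (chr3:115710433-115715072, minus strand), the sphingosine-1-phosphate receptor that lets lymphocytes leave lymphoid tissue, had 456, 481 and 423 CPM in BCL2 HEL pos cells, against 219, 181 and 209 CPM in HEL pos cells. That was a log2 fold change of 1.16 ± 0.14 (SE), adjusted p = 3.45e-05, with no overlap. Itgb7, the beta chain of the gut-homing integrin, had 208, 226 and 219 CPM in BCL2 HEL pos cells, against 87.0, 111 and 78.3 CPM in HEL pos cells, also without overlap (a log2 fold change of 1.24 ± 0.15 (SE), adjusted p = 3.03e-05). Cxcr4, the receptor of CXCL12, had 47.3, 56.5 and 87.9 CPM in BCL2 HEL pos cells, against 20.3, 20.3 and 13.3 CPM in HEL pos cells. For Cxcr4 that was a log2 fold change of 1.83 ± 0.30 (SE), adjusted p = 0.000544.

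Cxcr5, the receptor that draws B cells into follicles, rose by 0.72 on the log2 scale, Ccr6 by 1.03, and the alpha chain partner of ITGB7, Itga4, by 0.61. S1pr4 and Fcer2a also rose. Those that fell were Cd44, an adhesion receptor raised on activated cells, Ccr9, the small-intestinal chemokine receptor, and the integrin chains Itgb1 and Itgal. Cd44 had 45.2, 41.9 and 57.6 CPM in BCL2 HEL pos cells, against 107, 177 and 188 CPM in HEL pos cells. For Cd44 that was a log2 fold change of -1.70 ± 0.23 (SE), adjusted p = 8.44e-05. Ccr9 had 8.20, 6.88 and 9.55 CPM in BCL2 HEL pos cells, against 24.0, 31.8 and 24.5 CPM in HEL pos cells. For Ccr9 that was a log2 fold change of -1.71 ± 0.43 (SE), adjusted p = 0.0127. Ccr7, which leads cells into nodes, averaged 806 ± 219.7 CPM in BCL2 HEL pos cells and 713 ± 53.5 CPM in HEL pos cells (SD, n = 3 each), and Gpr183 averaged 382 ± 63.2 CPM in BCL2 HEL pos cells and 342 ± 23.6 CPM in HEL pos cells (SD, n = 3 each); neither was called. Without single libraries the list had 8 or 9 higher members, and it had 2 lower members without HEL pos 392 or BCL2 HEL pos 922 or 926. Cell types differ in these receptors, and in these sorted bulk samples fewer cells of a type and less RNA per cell cannot be told apart.

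FOXO targets, genes switched on when PI3K signalling is low, overlap with that list. Of 15 tested, 5 rose and 0 fell, with a median log2 fold change of 0.75. Txnip (chr3:96557957-96561883, plus strand), an inhibitor of thioredoxin and of glucose uptake, had 381, 565 and 539 CPM in BCL2 HEL pos cells, against 183, 171 and 147 CPM in HEL pos cells. The lowest BCL2 HEL pos library held more than 2 times the Txnip of the highest HEL pos library (a log2 fold change of 1.57 ± 0.19 (SE), adjusted p = 3.33e-05). Foxo3 itself and Sesn1, a sestrin that restrains mTORC1, rose by 1.01 and 1.24 on the log2 scale, and S1pr1 is in this list too. Klf2 averaged 58.0 ± 4.87 CPM in BCL2 HEL pos cells and 34.3 ± 6.59 CPM in HEL pos cells (SD, n = 3 each) and missed the threshold (adjusted p = 0.0892). When HEL pos 392 was left out the list had 3 called members, the Sesn1 call being lost there and without BCL2 HEL pos 950 (log2 fold changes of 1.12 and 0.92).

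The lists of B cell identity and antigen receptor signalling held more members that rose than fell. Of 21 identity genes, 6 rose and 1, Spib, fell, and of 26 signalling genes, 6 rose and 2 fell. Bank1, an adaptor of B cell receptor signalling, had 512, 477 and 507 CPM in BCL2 HEL pos cells, against 278, 238 and 246 CPM in HEL pos cells. For Bank1 that was a log2 fold change of 0.97 ± 0.11 (SE), adjusted p = 1.42e-05. Ebf1, a transcription factor that specifies B cells, had 177, 150.5 and 166 CPM in BCL2 HEL pos cells, against 102, 103 and 98.8 CPM in HEL pos cells. For Ebf1 that was a log2 fold change of 0.70 ± 0.11 (SE), adjusted p = 0.000422. Neither gene's groups overlapped. Pax5, Cd79b and Ikzf3 also rose, whereas Ms4a1, which encodes CD20, averaged 1449 ± 27.4 CPM in BCL2 HEL pos cells and 1571 ± 141 CPM in HEL pos cells (SD, n = 3 each) and was not called. The Pax5 call did not hold without HEL pos 392 or BCL2 HEL pos 922, and the Cd79b call without the HEL pos pool, HEL pos 399 or BCL2 HEL pos 922 or 926, with log2 fold changes between 0.52 and 0.54 in those fits. Spib was not called without the HEL pos pool, HEL pos 392 or BCL2 HEL pos 922 or 926. In the signalling list Cr2, Malt1, Dapp1, Lyn and Syk rose besides Cd79b, and Lck and Nfatc1 fell. The signalling list had 3, 2 and 3 higher members without HEL pos 392, HEL pos 399 and BCL2 HEL pos 926, Dapp1 being lost in each (log2 fold changes between 0.63 and 0.69). It had 0 lower members without HEL pos 392 or BCL2 HEL pos 922 and 1 without each of the other libraries.

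The genes of anergy, tolerance and inhibitory receptors were divided: of 28 tested, 5 rose and 5 fell. Those that rose were Fcgr2b, Cd22, Dgka, Btla and Cd200, most of them inhibitory receptors that resting B cells carry. Fcgr2b, the inhibitory Fc receptor, had 245, 237 and 246 CPM in BCL2 HEL pos cells, against 107, 119.5 and 121 CPM in HEL pos cells. The libraries of each kind lay close to one another and apart from the other kind, with a log2 fold change of 1.07 ± 0.12 (SE), adjusted p = 1.42e-05. Cd22, an inhibitory sialic-acid lectin, had 985, 938 and 910.5 CPM in BCL2 HEL pos cells, against 520.4, 531 and 539.9 CPM in HEL pos cells. For Cd22 that was a log2 fold change of 0.83 ± 0.12 (SE), adjusted p = 0.000124. Dgka, a diacylglycerol kinase that damps receptor signals, had 173, 189 and 201 CPM in BCL2 HEL pos cells, against 109.8, 79.0 and 73.1 CPM in HEL pos cells. For Dgka that was a log2 fold change of 1.11 ± 0.16 (SE), adjusted p = 0.000118. In all 3 genes the groups were apart.

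Those that fell were Cd5, Folr4, Pdcd1, Egr2 and Nr4a1. Cd5 (chr19:10717116-10739002, minus strand), a restraint on antigen receptor signals raised on anergic B cells, had 3.06, 1.45 and 1.52 CPM in BCL2 HEL pos cells, against 17.4, 18.5 and 16.9 CPM in HEL pos cells. The HEL pos libraries lay within 2 CPM of each other and far above all BCL2 HEL pos libraries (a log2 fold change of -3.13 ± 0.40 (SE), adjusted p = 4.88e-05). Folr4, also known as Izumo1r and a marker of anergic and regulatory T cells, had 2.36, 3.99 and 7.34 CPM in BCL2 HEL pos cells, against 36.5, 36.7 and 40.3 CPM in HEL pos cells. For Folr4 that was a log2 fold change of -3.05 ± 0.53 (SE), adjusted p = 0.000812. Pdcd1, which encodes PD-1, had 0, 3.02 and 1.11 CPM in BCL2 HEL pos cells, against 20.2, 27.4 and 19.3 CPM in HEL pos cells. For Pdcd1 that was a log2 fold change of -3.97 ± 0.82 (SE), adjusted p = 0.00285. The 26 T and NK cell markers, of which Ncr1 had at most 1 count, summed to 138 to 141 CPM in BCL2 HEL pos cells and to 178 to 301 CPM in HEL pos cells, and their part in these values was not tested. Without single libraries the list had 4 or 5 higher and 5 or 6 lower members.

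The immediate early genes, which antigen receptor signals switch on within minutes, did not move as a block: of 22 tested, 4 rose and 6 fell, with a median log2 fold change of -0.39. Egr1, a transcription factor induced through ERK, had 84.1, 72.5 and 48.0 CPM in BCL2 HEL pos cells, against 170.4, 202 and 261 CPM in HEL pos cells. For Egr1 that was a log2 fold change of -1.63 ± 0.23 (SE), adjusted p = 0.000112. Egr2, a factor that restrains lymphocyte activation, had 44.1, 74.2 and 34.3 CPM in BCL2 HEL pos cells, against 142, 137 and 175 CPM in HEL pos cells. For Egr2 that was a log2 fold change of -1.57 ± 0.27 (SE), adjusted p = 0.000751. Nr4a1, which encodes NUR77 and tracks antigen receptor signalling, had 144, 110.4 and 94.8 CPM in BCL2 HEL pos cells, against 238, 254 and 404 CPM in HEL pos cells. For Nr4a1 that was a log2 fold change of -1.36 ± 0.28 (SE), adjusted p = 0.0026. In all 3 every HEL pos library exceeded every BCL2 HEL pos library, and HEL pos 399 was the highest.

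Nr4a2, Dusp2 and Myc were the other members that fell. Jun, an AP-1 subunit, went the other way: it had 111, 153 and 116 CPM in BCL2 HEL pos cells, against 30.4, 43.5 and 44.9 CPM in HEL pos cells (a log2 fold change of 1.67 ± 0.22 (SE), adjusted p = 4.97e-05), with no overlap. Zfp36, whose product destabilises inflammatory mRNAs, had 480.1, 362 and 278 CPM in BCL2 HEL pos cells, against 158, 201 and 197 CPM in HEL pos cells. For Zfp36 that was a log2 fold change of 1.01 ± 0.21 (SE), adjusted p = 0.00283. Dusp1, a phosphatase that switches off MAP kinases, had 29.8, 11.5 and 10.5 CPM in BCL2 HEL pos cells, against 3.74, 5.79 and 7.05 CPM in HEL pos cells. For Dusp1 that was a log2 fold change of 1.64 ± 0.46 (SE), adjusted p = 0.0232, and Klf6 rose by 0.54 on the log2 scale. Library 922 was the highest of the BCL2 HEL pos libraries in Zfp36 and Dusp1. With HEL pos 392 left out, 2 members were higher. Among 20 NF-kappaB genes, Map3k14, which encodes the kinase NIK of the alternative pathway, rose (a log2 fold change of 1.10 ± 0.17 (SE), adjusted p = 0.000298), and Nfkb2, Nfkbib and Nfkbie fell. Without HEL pos 392 or BCL2 HEL pos 922 or 950, that list had 1 lower member, and without the HEL pos pool it had 2 higher members. Over all tested genes 5.78% were called higher and 5.90% lower.

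Myc and 9 genes of ribosome biogenesis fell. Of 19 genes of the MYC network and of ribosome biogenesis, 11 fell and 1, Max, rose, and the median log2 fold change was -0.54. Myc, the driver of cell growth genes, had 147, 154 and 125 CPM in BCL2 HEL pos cells, against 285, 347 and 406 CPM in HEL pos cells. Its highest BCL2 HEL pos library lay below its lowest HEL pos library (a log2 fold change of -1.29 ± 0.18 (SE), adjusted p = 0.000117). Dkc1, a pseudouridine synthase that modifies ribosomal RNA, had 115, 126 and 119 CPM in BCL2 HEL pos cells, against 225, 241 and 233 CPM in HEL pos cells. For Dkc1 that was a log2 fold change of -0.96 ± 0.13 (SE), adjusted p = 7.27e-05. Ncl, which encodes the nucleolar protein nucleolin, had 492, 569.8 and 435 CPM in BCL2 HEL pos cells, against 769, 869.6 and 966 CPM in HEL pos cells. For Ncl that was a log2 fold change of -0.80 ± 0.15 (SE), adjusted p = 0.00146. Nolc1, a nucleolar chaperone gene, had 84.5, 81.8 and 83.5 CPM in BCL2 HEL pos cells, against 122, 177 and 169 CPM in HEL pos cells. For Nolc1 that was a log2 fold change of -0.91 ± 0.16 (SE), adjusted p = 0.000759. All 4 genes were without overlap. Mxd4, an antagonist of MYC, fell as well (log2 fold change -1.19). Without HEL pos 399 the count of lower members was 7, and without any 1 of the 6 libraries Max was not called. Of 59 cytosolic ribosomal protein genes, 5 rose and 0 fell, a share of higher calls near that over all genes, with a median log2 fold change of 0.43. Rpl13, Rpl13a, Rps7 and Rps19 were among the 5; 1 or 2 members were called without the HEL pos pool, HEL pos 392 or 399, or BCL2 HEL pos 922 or 926, and up to 27 under other settings.

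Among genes of cell cycle entry, Ccnd2 fell. Ccnd2 (chr6:127125162-127152193, minus strand), the D-type cyclin that B cells use to leave quiescence, had 59.6, 63.5 and 89.4 CPM in BCL2 HEL pos cells, against 209.7, 258 and 268 CPM in HEL pos cells. Each HEL pos library held more than 2 times the Ccnd2 of any BCL2 HEL pos library (a log2 fold change of -1.79 ± 0.20 (SE), adjusted p = 1.05e-05). Its kinase partner Cdk4 had 259, 265 and 254 CPM in BCL2 HEL pos cells, against 399, 445 and 425 CPM in HEL pos cells. For Cdk4 that was a log2 fold change of -0.71 ± 0.11 (SE), adjusted p = 0.000298. With E2f1 these were the 3 called of 16 genes of G1 cyclins and CDK inhibitors, and all fell. The E2f1 call, on levels of 0.834, 1.81 and 1.80 CPM in BCL2 HEL pos cells and 5.11, 7.88 and 3.73 CPM in HEL pos cells, did not hold without any 1 of the 6 libraries (log2 fold changes between -2.10 and -1.56) or with limma-voom.

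Of 24 DNA replication genes, 6 fell and 0 rose, with a median log2 fold change of -0.38. Uhrf1, which guides maintenance methylation of newly copied DNA, had 19.9, 25.0 and 18.4 CPM in BCL2 HEL pos cells, against 71.4, 88.0 and 76.5 CPM in HEL pos cells. The groups were far apart (a log2 fold change of -1.90 ± 0.22 (SE), adjusted p = 1.90e-05). The helicase subunits Mcm2, Mcm3, Mcm5 and Mcm6 fell, with log2 fold changes between -0.62 and -0.54, and Cdc6, at 0.139, 0.845 and 1.38 CPM in BCL2 HEL pos cells and 4.11, 4.19 and 4.39 CPM in HEL pos cells, fell by 2.40 on the log2 scale. Mcm5 was not called without HEL pos 392 or BCL2 HEL pos 922 (-0.49 in both), nor Mcm6 without BCL2 HEL pos 922 or 950 (-0.53 and -0.49). The count was 3, 2 and 3 without HEL pos 392, BCL2 HEL pos 922 or BCL2 HEL pos 950. Top2a, the 1 called of 22 mitosis genes, had 9.45, 4.83 and 3.05 CPM in BCL2 HEL pos cells, against 20.6, 20.7 and 11.7 CPM in HEL pos cells. For Top2a that was a log2 fold change of -1.61 ± 0.47 (SE), adjusted p = 0.0283, and it was not called without the HEL pos pool, HEL pos 392 or BCL2 HEL pos 926 or 950 (log2 fold changes between -1.5 and -1.29).

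Of 24 genes of the unfolded protein response, many of them endoplasmic reticulum chaperones that fold secreted and membrane proteins, 9 fell and 0 rose, with a median log2 fold change of -0.33. Hsp90b1, which encodes GRP94, had 376, 576 and 572 CPM in BCL2 HEL pos cells, against 1063, 979 and 1191 CPM in HEL pos cells. For Hsp90b1 that was a log2 fold change of -1.08 ± 0.21 (SE), adjusted p = 0.00185. Pdia6, a protein disulphide isomerase, had 267, 380.4 and 333 CPM in BCL2 HEL pos cells, against 653, 615 and 633 CPM in HEL pos cells. For Pdia6 that was a log2 fold change of -0.96 ± 0.19 (SE), adjusted p = 0.00184. In both, library 922 was the lowest, and no BCL2 HEL pos library reached a HEL pos library. Hspa5, Calr, Canx, Pdia3, P4hb, Dnajb11 and Sdf2l1 were the others, with log2 fold changes between -0.96 and -0.47. The count was 5, 2 and 2 without HEL pos 392, HEL pos 399 or BCL2 HEL pos 922, and the calls of Calr and Sdf2l1 did not hold without HEL pos 399 (-0.55 and -0.83) or BCL2 HEL pos 922 (-0.52 and -0.77). Igj rose while these fell, and Sdc1, the plasma cell antigen CD138, was lower: it had 14.5, 26.9 and 24.8 CPM in BCL2 HEL pos cells, against 46.0, 44.1 and 46.0 CPM in HEL pos cells. For Sdc1 that was a log2 fold change of -1.04 ± 0.28 (SE), adjusted p = 0.0186, and was not called without HEL pos 392, HEL pos 399 or BCL2 HEL pos 922 (log2 fold changes of -1.06, -1.01 and -0.81).

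The response to amino acid shortage, run by the transcription factor ATF4, had 6 of 19 tested genes lower and 0 higher, with a median log2 fold change of -0.41, or -0.40 with a member that had 0 counts in 1 kind of cell set at its bound. Asns (chr6:7675169-7693254, minus strand), asparagine synthetase, had 0.417, 0.725 and 0.277 CPM in BCL2 HEL pos cells, against 7.10, 14.7 and 17.6 CPM in HEL pos cells. The 3 BCL2 HEL pos libraries held 11 counts of Asns in all, against 336 in the HEL pos libraries, and the difference was a log2 fold change of -4.73 ± 0.71 (SE), adjusted p = 0.00021. Shmt2, an enzyme of mitochondrial one-carbon metabolism, had 148, 132 and 141 CPM in BCL2 HEL pos cells, against 219, 269 and 249 CPM in HEL pos cells. Mthfd2, of the same pathway, had 22.4, 39.9 and 25.3 CPM in BCL2 HEL pos cells, against 52.5, 65.1 and 61.9 CPM in HEL pos cells. Both fell without overlap. For Shmt2 that was a log2 fold change of -0.81 ± 0.13 (SE), adjusted p = 0.000298. For Mthfd2 that was a log2 fold change of -1.03 ± 0.21 (SE), adjusted p = 0.00291. Psat1, of serine synthesis, and the tRNA synthetase genes Aars and Gars fell by 0.90, 0.54 and 0.47 on the log2 scale. The Aars call did not hold without BCL2 HEL pos 926 (log2 fold change -0.45), and 4 to 6 members were called without single libraries.

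ATF4 and C/EBP partners bind a composite element, searched for here as TGATGNAAN on both strands of the 250 bases before each RefSeq start (GRCm38.p6), a window in which 3.44% of 32851 promoter entries hold a match. Counted by gene, 2.5% of the 8226 tested genes with a window hold a match. The element was found for 3 of the 6 list members that fell and for Chac1 and Slc7a11 of the 11 uncalled members that have a window. The list was chosen as genes of the ATF4 response, so a share above that of all genes says nothing about the fall. The 3 windows are shown because they belong to genes that fell together, with the match in capitals, each read 5′ to 3′ along its gene's strand. A match describes the letters and shows no binding.
Asns, chr6:7693210-7693459, minus strand: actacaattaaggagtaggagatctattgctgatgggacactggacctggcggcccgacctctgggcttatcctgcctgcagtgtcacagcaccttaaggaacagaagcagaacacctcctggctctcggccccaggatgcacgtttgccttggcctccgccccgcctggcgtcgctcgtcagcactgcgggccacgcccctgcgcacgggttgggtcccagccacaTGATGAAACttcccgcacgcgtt
Aars, chr8:111033592-111033841, plus strand: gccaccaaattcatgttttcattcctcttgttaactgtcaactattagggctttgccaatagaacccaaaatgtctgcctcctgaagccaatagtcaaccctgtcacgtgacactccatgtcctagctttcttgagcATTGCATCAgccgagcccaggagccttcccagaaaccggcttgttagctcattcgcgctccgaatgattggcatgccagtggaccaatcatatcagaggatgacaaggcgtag
Gars, chr6:55037751-55038000, plus strand: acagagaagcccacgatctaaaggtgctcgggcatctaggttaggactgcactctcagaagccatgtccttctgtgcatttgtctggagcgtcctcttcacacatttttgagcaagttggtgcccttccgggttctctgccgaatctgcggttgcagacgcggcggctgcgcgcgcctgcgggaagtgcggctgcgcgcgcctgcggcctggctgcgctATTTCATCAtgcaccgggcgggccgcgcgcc
In Asns the match begins 23 bases before the RefSeq start and reads on the gene's strand. The GENCODE coordinates of Asns given above start further upstream, so by them the match lies inside the gene. In Aars and Gars it reads on the opposite strand, as TGATGCAAT and TGATGAAAT, and lies 113 to 105 and 31 to 23 bases before the start. Of these 3 genes, Asns changed by far the most, as given above.

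Of 20 glycolysis and hypoxia genes, 4 fell and 1 rose, where 5.90% of all tested genes fell and 5.78% rose. Ldha, lactate dehydrogenase, had 692, 693 and 685 CPM in BCL2 HEL pos cells, against 1153, 1324 and 1206 CPM in HEL pos cells. For Ldha that was a log2 fold change of -0.83 ± 0.14 (SE), adjusted p = 0.000489. Pgam1 had 242, 262 and 275 CPM in BCL2 HEL pos cells, against 365, 457 and 399 CPM in HEL pos cells. For Pgam1 that was a log2 fold change of -0.65 ± 0.12 (SE), adjusted p = 0.00117. Hk2 and Pfkp fell too, and Gpi1 rose (a log2 fold change of 0.48 ± 0.12 (SE), adjusted p = 0.0158). Of 28 oxidative phosphorylation genes, 3 fell and 0 rose, a share of calls in either direction near the 11.7% over all tested genes. Cycs, which encodes cytochrome c, had 184, 217 and 173 CPM in BCL2 HEL pos cells, against 280.1, 371 and 320.1 CPM in HEL pos cells. For Cycs that was a log2 fold change of -0.76 ± 0.14 (SE), adjusted p = 0.00145, and the others were Cyc1 and Ndufab1. Ldha, Pgam1 and Cycs were each lower in all 3 BCL2 HEL pos libraries than in any HEL pos library. Without HEL pos 392 or BCL2 HEL pos 922 or 950 the glycolysis list had 2 lower members, without HEL pos 399 or BCL2 HEL pos 926 or 950 it had 0 higher, and without HEL pos 392 or BCL2 HEL pos 950 the oxidative list had 1.

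Antigen presentation by MHC class II was represented by 4 higher and 0 lower genes of 12, all of them chaperones of peptide loading. H2-Oa, of the DO chaperone that modulates loading, had 581, 595 and 545 CPM in BCL2 HEL pos cells, against 358, 372 and 342 CPM in HEL pos cells. For H2-Oa that was a log2 fold change of 0.68 ± 0.13 (SE), adjusted p = 0.00167. Its partner H2-Ob had 1270.4, 1314 and 1246 CPM in BCL2 HEL pos cells, against 899, 823 and 799 CPM in HEL pos cells. For H2-Ob that was a log2 fold change of 0.60 ± 0.11 (SE), adjusted p = 0.00103. H2-DMa, of the DM chaperone that loads peptide, had 733, 702 and 693 CPM in BCL2 HEL pos cells, against 473, 474 and 455 CPM in HEL pos cells. For H2-DMa that was a log2 fold change of 0.60 ± 0.12 (SE), adjusted p = 0.00297. No library of 1 kind reached the other in these 3 genes. H2-DMb1 rose by 0.44 on the log2 scale, a call that held without the HEL pos pool but not without any 1 of the other 5 libraries, with log2 fold changes between 0.38 and 0.48. Of 24 proteasome genes, the standard subunits Psma7, Psmb5, Psmd1 and Psmd14 fell and the immunoproteasome subunits Psmb8 and Psmb9 rose. Psmb5 had 129.6, 152 and 169 CPM in BCL2 HEL pos cells, against 217, 261 and 237 CPM in HEL pos cells. For Psmb5 that was a log2 fold change of -0.67 ± 0.11 (SE), adjusted p = 0.000684. Psmb8, which takes its place in the immunoproteasome, had 857, 884 and 853 CPM in BCL2 HEL pos cells, against 648, 679 and 651 CPM in HEL pos cells. For Psmb8 that was a log2 fold change of 0.39 ± 0.11 (SE), adjusted p = 0.023. The Psmb8 call did not hold without any 1 of the 6 libraries (log2 fold changes between 0.38 and 0.42), and the list had 2 lower members without HEL pos 399 or BCL2 HEL pos 922 or 950. Its count of higher members was 1 without the HEL pos pool and 0 without each of the other 5 libraries, so that the call of Psmb9 did not hold there either. Of 25 lysosome and autophagy genes, 5 fell, led by Cd63, and 1 rose; without HEL pos 392 or BCL2 HEL pos 922 there were 2 lower, without HEL pos 399 or BCL2 HEL pos 950 there were 3, and without HEL pos 399 or BCL2 HEL pos 926 or 950 there were 0 higher.

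Of 11 marginal zone B cell genes, Notch targets among them, 5 rose and 1 fell, with a median log2 fold change of 0.50. Notch2, the receptor that marginal zone B cells need, had 245, 228 and 217 CPM in BCL2 HEL pos cells, against 101, 119 and 118 CPM in HEL pos cells. For Notch2 that was a log2 fold change of 1.03 ± 0.15 (SE), adjusted p = 0.000177. Hes1, a transcriptional repressor that Notch induces, had 39.8, 29.8 and 31.3 CPM in BCL2 HEL pos cells, against 21.7, 18.7 and 16.2 CPM in HEL pos cells. For Hes1 that was a log2 fold change of 0.83 ± 0.17 (SE), adjusted p = 0.00219. Cr2, the complement receptor CD21, had 287, 263 and 331 CPM in BCL2 HEL pos cells, against 154, 159 and 188 CPM in HEL pos cells. For Cr2 that was a log2 fold change of 0.81 ± 0.18 (SE), adjusted p = 0.00499. All 3 were apart between the kinds of cell. Dtx1 and 2010001M09Rik, the older symbol of Mzb1, rose by 0.99 and 0.76 on the log2 scale. The scavenger receptor Cd36, in the same list, fell: it had 108, 74.9 and 106 CPM in BCL2 HEL pos cells, against 147, 251 and 284 CPM in HEL pos cells. For Cd36 that was a log2 fold change of -1.24 ± 0.23 (SE), adjusted p = 0.00113. The count of higher members was 5 without each of the libraries in turn, whereas against the HEL pos pool alone it was 1.

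The remaining B cell lists held few called genes. Of 15 plasma cell fate genes, Igj and 2010001M09Rik rose and Sdc1, Slamf7, Creld2 and Txndc5 fell, with 1 lower without HEL pos 392 and 2 without HEL pos 399 or BCL2 HEL pos 922 or 950. Of 10 germinal centre genes, Basp1 and Ung fell, with 0 or 1 called without HEL pos 392, HEL pos 399 or BCL2 HEL pos 926 or 950. Of 4 transitional and immature B cell genes, Cd93 fell (a log2 fold change of -1.79 ± 0.44 (SE), adjusted p = 0.0102), a call lost without HEL pos 392 or BCL2 HEL pos 922 (log2 fold changes of -1.60 and -1.46). Cd5 was the 1 called of 15 genes of B-1 and memory cells. Of 14 TGF-beta response genes, Smad3 fell (a log2 fold change of -0.79 ± 0.22 (SE), adjusted p = 0.0213), not called without HEL pos 392, HEL pos 399 or BCL2 HEL pos 922 or 950 (log2 fold changes between -0.82 and -0.65). Of 32 interferon-stimulated genes, Oasl1 and Ddx60 rose and Rsad2 and Bst2 fell, a share near the 11.7% called over all tested genes. These counts ran from 0 to 2 higher and from 0 to 6 lower without single libraries, the 6 being without the HEL pos pool. None of 14 Toll-like receptor genes, 16 cholesterol synthesis genes or the 2 tested BAFF and APRIL receptors was called by edgeR.

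Several T cell genes fell, and they did not follow 1 pattern over the HEL pos libraries. Of 22 T and NK cell markers, 9 fell and 0 rose, namely Cd3d, Cd3e, Cd3g, Cd8a, Cd8b1, Lef1, Thy1, Nkg7 and Prf1; the median log2 fold change was -2.38. The largest term of their sum was Cd2, also found on B cells, which had 109, 109.8 and 112 CPM in BCL2 HEL pos cells, against 137, 121 and 108 CPM in HEL pos cells. Cd3e had 0.278, 0.845 and 1.11 CPM in BCL2 HEL pos cells, against 9.22, 10.3 and 2.00 CPM in HEL pos cells. Cd3d had 1.25, 0.725 and 0.831 CPM in BCL2 HEL pos cells, against 8.47, 12.3 and 2.40 CPM in HEL pos cells. These chains of the T cell receptor complex were lowest in HEL pos 399 among the HEL pos libraries. Thy1 (chr9:44043384-44048579, plus strand), by contrast, had 0.278, 0.121 and 0.138 CPM in BCL2 HEL pos cells, against 13.6, 19.5 and 13.8 CPM in HEL pos cells. For Thy1 that was a log2 fold change of -6.34 ± 0.54 (SE), adjusted p = 5.51e-07. Thy1, Cd5, Folr4 and Pdcd1 were about level over the 3 HEL pos libraries, in which Cd3e ranged from 2.00 to 10.3 CPM. Cd3e was not called without HEL pos 392 or BCL2 HEL pos 922 (log2 fold changes of -2.89 and -2.86), Cd8a without BCL2 HEL pos 922 (-3.38), and Cd3g without any 1 of the 6 libraries (between -3.64 and -2.60). Lef1, a T cell transcription factor, had 3.06, 3.74 and 4.85 CPM in BCL2 HEL pos cells, against 29.3, 21.3 and 18.4 CPM in HEL pos cells. For Lef1 that was a log2 fold change of -2.56 ± 0.38 (SE), adjusted p = 0.000193. Lck, the kinase of the T cell receptor, had 178, 211 and 205 CPM in BCL2 HEL pos cells, against 350.5, 354 and 313 CPM in HEL pos cells. For Lck that was a log2 fold change of -0.78 ± 0.19 (SE), adjusted p = 0.0115. The Lck call did not hold without HEL pos 392 or BCL2 HEL pos 922 (log2 fold changes of -0.75 and -0.70).

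**Figure D4:**
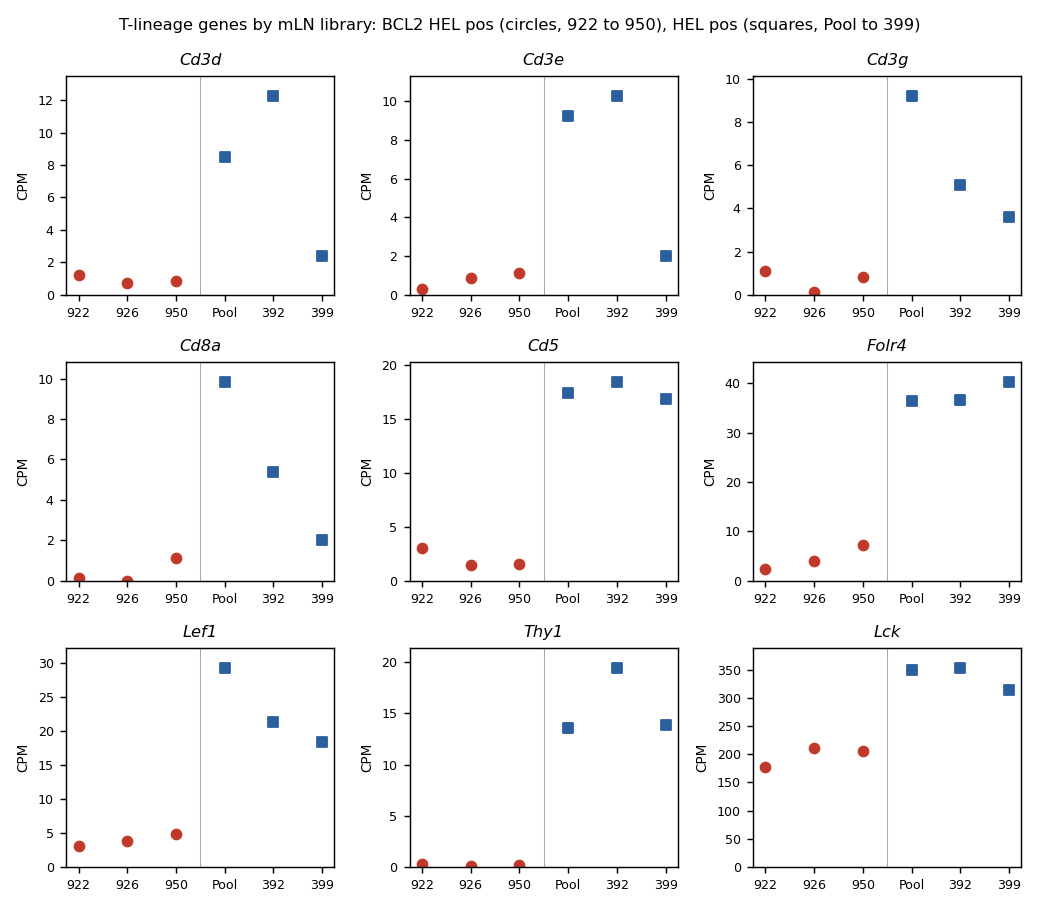
CPM of 9 T-lineage genes in each mLN library, BCL2 HEL pos 922, 926 and 950 (red circles, left) and HEL pos pool, 392 and 399 (blue squares, right), each y axis starting at 0. Cd3d and Cd3e differ widely between the HEL pos libraries, whereas Cd5, Folr4 and Lck are about level in them and lower in all 3 BCL2 HEL pos libraries.

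Without HEL pos 392 or BCL2 HEL pos 922 5 members of the T and NK list were called. Of 13 myeloid and dendritic cell markers, Cst3, a protease inhibitor gene, was the 1 called. It had 364, 346 and 303 CPM in BCL2 HEL pos cells, against 159, 182 and 154 CPM in HEL pos cells, and rose with a log2 fold change of 1.03 ± 0.17 (SE), adjusted p = 0.000543. Granulocyte markers summed to at most 0.417 CPM. Epithelial markers summed to 34.3 to 38.4 CPM in BCL2 HEL pos cells and 57.9 to 63.8 CPM in HEL pos cells; Epcam had 3.89, 6.88 and 6.65 CPM in BCL2 HEL pos cells, against 26.8, 32.5 and 35.3 CPM in HEL pos cells and was the 1 called of 16, and Krt8 was at 0 in all 6 libraries. Stromal and endothelial markers were almost all Pecam1, which averaged 147 ± 2.29 CPM in BCL2 HEL pos cells and 119 ± 3.17 CPM in HEL pos cells (SD, n = 3 each) and was not called; Madcam1, with 1 count in the BCL2 HEL pos libraries together, was called lower and was not called without HEL pos 392 or 399 or any 1 of the BCL2 HEL pos libraries. None of 4 granulocyte or 4 erythroid and platelet markers was called.

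The HEL neg mLN pool, 1 library and so without a test, lay nearer to the BCL2 HEL pos mean than to the HEL pos mean, on the log2(CPM + 1) scale, for 1033 of the 1334 called genes (77.4%), against 6671 of all 11419 tested genes (58.4%). The shares were close for genes that were higher (505 of 660) and lower (528 of 674). Myc stood at 87.6 CPM in that pool, Ccnd2 at 82.4, Cd63 at 1.59, Neurl3 at 271 and S1pr1 at 416. Other genes of high fold change lay nearer to the HEL pos mean in it: Hspa1a stood at 6.52 CPM, Tmem176b at 10.0, Gm6548 at 3.82, Rps15a-ps6 at 1.43 and Cxcr4 at 26.9. Bcl2l11, which was not called, stood at 37.8 CPM in the pool and over 100 CPM in each of the 6 libraries. The T cell gene Thy1 reached 10.2 CPM in it, near the level of HEL pos cells.

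Whether the difference between BCL2 HEL pos and HEL pos cells was itself another in mLN than in spleen was tested as an interaction. It was called for 44 genes (0.385% of those tested), 25 with the higher log2 fold change in mLN and 19 with the lower, and 1066 passed an unadjusted p under 0.05. Hes1 (chr16:30064384-30067796, plus strand) had the smallest p among the genes named here: it averaged 33.6 ± 5.36 CPM in BCL2 HEL pos cells against 18.9 ± 2.73 CPM in HEL pos cells in mLN, and 53.5 ± 7.24 CPM in BCL2 HEL pos cells against 107 ± 8.11 CPM in HEL pos cells in spleen. The log2 fold change was 0.83 in mLN and -1.0 in spleen, opposite in sign, and the difference between them was 1.83 ± 0.23 (SE), adjusted p = 0.000948. The difference was called without each of the 12 libraries in turn. S1pr1 averaged 540.0 ± 101 CPM in BCL2 HEL pos cells against 569.8 ± 41.0 CPM in HEL pos cells in spleen, a log2 fold change of -0.08, and the difference from mLN was 1.23 ± 0.20 (SE), adjusted p = 0.0129. Cr2 averaged 586 ± 36.5 CPM in BCL2 HEL pos cells against 893 ± 297 CPM in HEL pos cells in spleen, where it fell with overlap between the groups, and the difference from mLN was 1.42 ± 0.25 (SE), adjusted p = 0.0236.

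Tagap, a GTPase-activating protein gene, averaged 104 ± 19.1 CPM in BCL2 HEL pos cells against 124 ± 2.90 CPM in HEL pos cells in mLN, and 68.9 ± 23.8 CPM in BCL2 HEL pos cells against 20.3 ± 5.01 CPM in HEL pos cells in spleen. The HEL pos cells of spleen held the least, and the difference of the log2 fold changes was -2.01 ± 0.30 (SE), adjusted p = 0.00636, called without each of the 12 libraries in turn. Gsto1, a glutathione transferase gene, averaged 136 ± 12.8 CPM in BCL2 HEL pos cells against 105 ± 5.70 CPM in HEL pos cells in mLN, and 49.4 ± 3.25 CPM in BCL2 HEL pos cells against 14.5 ± 1.08 CPM in HEL pos cells in spleen (-1.39 ± 0.22 (SE), adjusted p = 0.0108). Dusp4, a feedback phosphatase of MAP kinases, averaged 40.4 ± 4.89 CPM in BCL2 HEL pos cells against 45.7 ± 10.9 CPM in HEL pos cells in mLN, and 7.82 ± 0.878 CPM in BCL2 HEL pos cells against 2.17 ± 1.32 CPM in HEL pos cells in spleen (-2.04 ± 0.37 (SE), adjusted p = 0.0236). Rbpj, the DNA-binding partner of Notch, and Tmem123 differed by -1.07 and 1.08. Among genes described above, Cd22, Bank1, Cyp27a1 and Cd36 had the higher log2 fold change in mLN, and Jup, Folr4 and Cd3e the lower. Each of these calls was lost in 7 to 11 of the 12 runs that left out 1 library. Without BCL2 HEL pos 922 of mLN, 2 genes in all were called, those of S1pr1, Cr2, Gsto1, Dusp4, Rbpj and Tmem123 not among them, at log2 differences of 1.23, 1.44, -1.32, -2.12, -0.97 and 1.11. The count was also below 30 without mLN HEL pos 392 (16), mLN HEL pos 399 (7) or mLN BCL2 HEL pos 950 (5), and without spleen HEL pos pool (15), spleen HEL pos 399 (10) or spleen BCL2 HEL pos 922 (23), 926 (4) or 950 (15).

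Against Peyer's patches the interaction was called for 1 gene (0.00876%), while 1132 passed an unadjusted p under 0.05. That gene was Cd63, which averaged 3.09 ± 0.223 CPM in BCL2 HEL pos cells against 45.8 ± 6.08 CPM in HEL pos cells in mLN, and 5.04 ± 1.29 CPM in BCL2 HEL pos cells against 8.61 ± 2.83 CPM in HEL pos cells in PP. The difference of the log2 fold changes was -3.12 ± 0.50 (SE), adjusted p = 0.039. It was not called without any 1 of the 6 mLN libraries or without PP HEL pos 399, PP BCL2 HEL pos 926 or PP BCL2 HEL pos 950 (log2 differences between -3.23 and -2.92), and DESeq2 called 26 genes. Bcl2 had log2 fold changes of 1.11 in mLN, 1.28 in spleen and 1.19 in PP. The differences of mLN from spleen and from PP were -0.17 ± 0.33 and -0.08 ± 0.33 (SE) and were not called. The same comparison called 1070 genes in spleen, 4.55% higher and 4.82% lower, and 1150 in PP, 5.33% higher and 4.74% lower. The organs share no library, but their libraries carry the same numbers and pool label, so their calls may not be independent. Of the 1334 genes called in mLN, 450 were called in the same direction in spleen and 474 in PP, 267 of them in both, and 10 and 2 in the opposite direction.

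**Figure D5:**
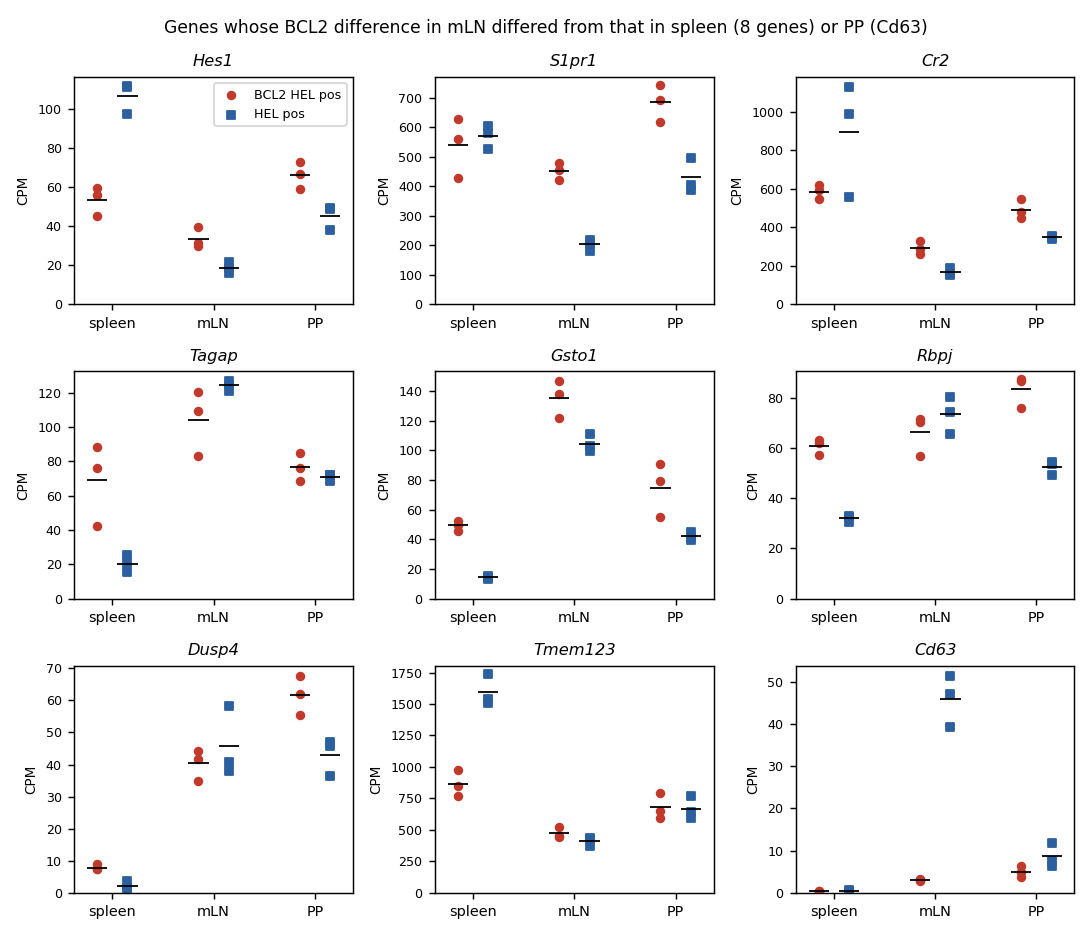
CPM of 9 genes in spleen, mLN and PP, BCL2 HEL pos libraries (red circles, left of each pair) and HEL pos libraries (blue squares, right), 3 libraries each with the mean as a bar and each y axis starting at 0. The means of Hes1 and Cr2 are higher in BCL2 HEL pos cells in mLN and lower in spleen, and Cd63 in HEL pos cells of mLN stands above all other groups.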

How the data were processed

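RNA was measured in 21 libraries of sorted mouse B cells. The deposited values are raw read counts per gene. The submitters' processing notes name STAR, HTSeq, DESeq2 and mm10 without versions or roles, and the labels name both TruSeq and Nextera XT for library preparation; strand use in counting is not stated, so overlapping and antisense genes cannot be told apart. Counts were fitted in R 4.3.3 with edgeR 4.0.16 (quasi-likelihood, trimmed mean of M-values, filterByExpr) over 18 libraries in 6 groups of organ and kind, which share 1 estimate of spread, and p-values were adjusted by Benjamini-Hochberg over 11419 genes. The SE is the absolute log2 fold change over the square root of F. DESeq2 1.42.0 and limma 3.58.1 gave alternatives, as did other scalings, filters and left-out libraries. The script was tested on simulated data. Intervals and floors of 3 counts cover counting error only. Named genes were, among called genes with no overlap between groups and a mean log2 CPM of at least 3, the 12 highest and 12 lowest, up to 4 called members of each list with the smallest p, the BCL2 family, defining markers, and the 8 interactions with the smallest p in each test; other members named beside a count were chosen after their values were seen. Members and lists were chosen with earlier results of these data known. Coordinates are those of GENCODE M21, and promoters those of RefSeq, GRCm38.p6. Some genes are not reported here.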

Additional observations from a re-analysis of the deposited data

Results flagged for a closer look

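The genes here were singled out because their difference between BCL2 HEL pos and HEL pos cells was itself different in another organ, by edgeR's interaction test at an adjusted p under 0.05. Values are the log2 fold change in mLN minus that in spleen. It was positive for Hes1 (1.83), Cd36 (1.49), Cyp27a1 (1.52), Cr2 (1.42), S1pr1 (1.23), Tmem123 (1.08), Ms4a1 (0.94), Cd22 (0.81) and Bank1 (0.75). It was negative for Rbpj (-1.07), Gsto1 (-1.39), Tagap (-2.01), Dusp4 (-2.04), Jup (-3.89), Folr4 (-3.99) and the T cell gene Cd3e (-5.88). Jup and Folr4 were near the floor in spleen. They averaged 1.38 and 2.57 CPM in its BCL2 HEL pos cells and 1.03 and 1.36 CPM in its HEL pos cells. In those libraries 3 counts amounted to 0.336 to 0.454 CPM. For Hes1 and Tagap the call held without each of 12 libraries in turn. For S1pr1 and Gsto1 it was lost only without mLN BCL2 HEL pos 922. It was lost in 4 of the 12 runs for Cr2, Dusp4 and Rbpj, in 6 for Ms4a1 and in 7 for Jup and Tmem123. The losses were 9 for Cd3e, 10 for Bank1, Cd36 and Folr4, and 11 for Cd22 and Cyp27a1. Against PP, Cd63 differed by -3.12. T cell markers moved with Folr4 and Cd3e in mLN, and their part in those values was not tested.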

How the results depend on the processing

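Of 1334 calls in mLN, 0 changed direction under any alternative run, but every run reused some or all of the same 6 libraries. The count was 1647 with DESeq2, 1360 with its size factors, 1491 with no filter and 1397 with limma-voom. It was 2105 with the 6 libraries alone, 82 against the HEL pos pool alone and 162 against a 1.5-fold threshold, and 654 to 1192 without single libraries. The 44 differences from spleen became 191 with no filter and 158 with DESeq2, and 2 to 39 without single libraries; the 1 difference from PP became 111, 26, and 0 to 8.

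The labels do not say that a library number marks 1 mouse across organs. Deviations of same-numbered libraries correlated at 0.020 to 0.307, not all above 0.1, and of others at -0.207 to 0.101, so the pairing was not established, though same-numbered values were all positive. With the replicate block, limma-voom called 1451 genes in mLN, and edgeR with library number as a fixed term called 192 differences from spleen and 13 from PP. Each kind had 3 libraries, and 3 counts amounted to 0.299 to 0.417 CPM.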
